A study of Mus musculus with 55 samples.

Results

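The genes described here are the axon guidance ligands and receptors of the mouse ventral dentate gyrus, namely the semaphorins, plexins, neuropilins, ephrins, Eph receptors, Slits, Robos, netrins, netrin-Gs, Dcc and Unc5 receptors. They were chosen by symbol among the protein-coding genes, and a gene was kept when it reached 1 CPM (counts per 1000000 counted read pairs) in at least 7 of the 54 mice. Of 71 genes with a matching symbol, 68 passed this step, out of 13618 protein-coding genes that passed it and 45318 genes in the tables. The 68 genes comprise 20 semaphorins, 11 plexins and neuropilins, 7 ephrins, 13 Eph receptors, 7 Slit and Robo genes and 9 netrins, netrin-Gs, Dcc and Unc5 receptors. The remaining gene, Unc50, matched only by the spelling of its symbol and encodes a protein of the Golgi membrane, not a netrin receptor. Efna4, Epha1 and Unc5cl reached 1 CPM in 0 mice and were left out. The members nearest to the limit were Sema3f, which reached 1 CPM in 33 mice, Epha8 in 38, Epha2 in 41 and Efna5 in 44.

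Male C57BL/6J mice without a transgene or drug were raised from 21 days of age in standard housing (SH) or in an enriched environment (EE) for 8 weeks, and were then left unstressed as controls or exposed to 10 days of chronic social defeat stress (CSDS) by CD-1 aggressors. Defeated mice with a social interaction ratio above 1 were classed as resilient (RES) and those below 1 as susceptible (SUS), and the ventral dentate gyrus was collected at postnatal day 90. The groups hold 10 SH control, 7 SH RES, 10 SH SUS, 9 EE control, 9 EE RES and 9 EE SUS mice, each sequenced singly as bulk tissue. The comparisons asked how these genes differed with housing, with defeat and with the behavioral outcome of defeat. In bulk tissue, fewer cells of a type and less RNA per cell cannot be told apart.

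Axon guidance molecules steer growing axons by attraction or repulsion. Semaphorins are ligands of plexins, with neuropilins as co-receptors of the secreted class, ephrins bind Eph receptor tyrosine kinases on neighboring cells and can signal in both directions, Slits act on Robo receptors, and netrins act on Dcc and Unc5 receptors. In the adult hippocampus the same families are known for roles in mossy fiber targeting, dendritic spines, synaptic plasticity and blood vessels.

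The 55 deposited libraries, 1 of which repeats EE control mouse 9 and was added to it, gave between 16760009 and 45872357 counted read pairs per mouse, with a median of 21552884. Markers of dentate granule cells (Prox1, Dsp, C1ql2, Tdo2, Lct, Trpc6 and Pdzd2) were present in every mouse, and their summed level lay between 412.8 and 895.5 CPM. The dissected tissue also differed between mice in neighboring structures. The summed level of 7 thalamus markers (Tcf7l2, Prkcd, Lef1, Zic1, Ramp3, Tnnt1 and Synpo2) ranged from 27.0 to 324.0 CPM, and it was above 200 CPM in 5 mice, EE RES 6, EE SUS 1, EE SUS 8, EE SUS 6 and SH SUS 3. The summed level of 9 choroid plexus markers was above 300 CPM in SH control 3, EE SUS 3, SH SUS 3, EE control 9 and EE RES 3, against group medians between 22.8 and 25.4 CPM, and 4 of the 9 (Ttr, Folr1, Clic6 and Kcne2) were at 0 in some mice.

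Levels were compared between genes as CPM per kilobase of exon. By this measure the guidance genes spanned from 0.150 CPM per kilobase for Sema3a to 102.6 CPM per kilobase for Epha4, with a median of 3.51. In all, 17 members lay at or above 10 CPM per kilobase and 11 lay below 1.

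Among the ligands, the semaphorins of the highest level were Sema6b, a transmembrane semaphorin, at 22.2 ± 2.10 CPM per kilobase (SD, n = 54), Sema7a, which is anchored by a lipid and acts through integrins and Plxnc1, at 18.1, and Sema3e, the secreted ligand of Plxnd1, at 10.01. The secreted semaphorins Sema3b, Sema3f and Sema3a had the lowest levels of the family, at 0.390, 0.247 and 0.150 CPM per kilobase. The highest ephrins were Efnb3, a transmembrane ephrin known as a midline barrier of the spinal cord, at 26.7 CPM per kilobase, and Efna3, a ligand of EphA4 on astrocyte processes, at 17.3. The next ephrin, Efnb1, lay at 2.93, and Efna5 was lowest at 0.368. Slit1 stood out among the Slits with 51.6 ± 6.225 CPM per kilobase (SD, n = 54), above Slit3 at 8.95 and Slit2 at 3.35. The order of Slit3 and Slit2 rests on their exon lengths of 6067 and 25433 bp. It was the reverse in CPM, at 54.3 for Slit3 and 85.2 for Slit2. The netrins themselves were low, at 0.985 CPM per kilobase for Ntn4 and 0.913 for Ntn1, and the membrane-bound netrin-G Ntng1 lay at 6.61.

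Among the receptors, Epha4, which binds ephrins of both classes and is known for its part in spine morphology and plasticity, was the highest of all 68 genes. Epha7 and Epha6 followed at 30.8 and 30.2 CPM per kilobase, and Epha8 and Epha2 were the lowest Eph receptors at 0.291 and 0.258. Nrp1 and Nrp2, the co-receptors of class 3 semaphorins, lay at 29.8 and 10.8 CPM per kilobase, and Plxna4, the highest plexin, at 24.9. Robo2 and Robo1 lay at 10.4 and 6.10 CPM per kilobase, and Robo4, known from endothelium, at 0.732. The netrin receptors Unc5a and Unc5c reached 11.1 and 10.4, and Dcc 3.68 CPM per kilobase. These values order the genes within the tissue by a length that counts every annotated exon. The length of the RNA present was not measured, and the values do not tell in which cells the RNA lay.

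**Figure D1:**
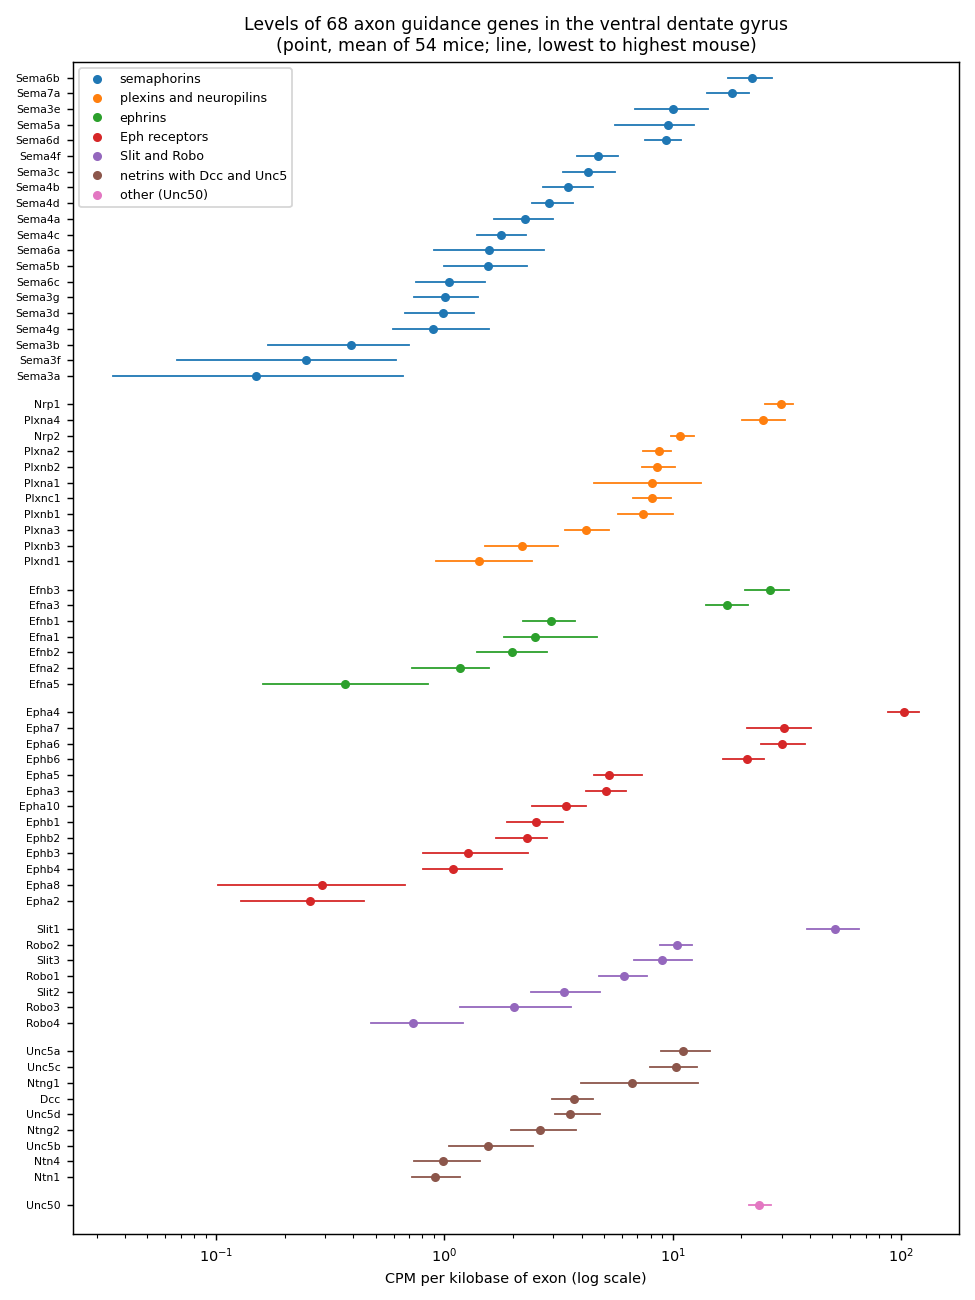
Level of each of the 68 genes in CPM per kilobase of exon on a log axis, with the mean of 54 mice as a point and the lowest and highest mouse as the ends of a line, grouped by family. Epha4 lies highest at 102.6 and Sema3a lowest at 0.150, and the longest lines belong to genes of low level.

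The spread of the guidance genes between mice of 1 group was set beside that of all genes tested, which were not matched for level. At the limit of 1 CPM in 7 mice, which every member reached, 15980 genes pass, against the 18283 tested. The coefficient of variation (CV) within groups had a median of 12.4% over the 68 members and of 11.2% over all 18283 genes tested. It was below 10% in 20 members, between 10% and 20% in 35 and at or above 20% in 13. The steadiest guidance genes were Nrp2 with a CV of 5.20%, Robo2 with 6.54% and Sema6d with 6.69%, whereas Sema3a had 57.2%, Sema3f 50.3%, Efna5 40.6% and Epha8 40.1%. In these last 4 genes, counting error alone gave a CV between 15.7% and 19.8%. The CV of Sema3a was raised by EE RES 9, at 9.17 CPM against 3.77 CPM in the next mouse. Ntng1 had a CV of 27.9% at a level of 54.5 CPM, where counting error was 3.05%.

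The highest and lowest values of the 68 genes were spread over 37 of the 54 mice, with 3 mice holding more than 10 each. EE SUS 8 was the highest of the 54 mice in 10 of the 68 genes (Epha8, Robo3, Efna5, Ntng1, Ntng2, Unc5b, Sema6d, Sema4d, Sema6c and Sema4g) and the lowest in 1. EE RES 1 was highest in 8 genes and lowest in 6, and EE control 8 was highest in 3 and lowest in 8. EE RES 1 had the highest summed level of CA1 pyramidal markers (254.7 CPM) and of meningeal fibroblast markers (108.6 CPM), and EE control 8 had the highest sum of granule cell markers (895.5 CPM) and the lowest of meningeal fibroblast markers (29.2 CPM). The part of tissue content in these extremes was not tested.

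Across the 6 groups, 0 of the 68 genes passed an adjusted p of 0.05 in any of 12 comparisons by the quasi-likelihood test of edgeR, adjusted over all 18283 genes. limma-voom also called 0 members in each comparison, and DESeq2 called 1, Robo2, between the housings. For a difference of any kind among the groups, 8 members had an unadjusted p below 0.05 by edgeR, 7 by limma and 9 by DESeq2. These 8 members are 11.8% of the 68, and 11.1% of all genes tested reached the same limit, with 0.35% of all genes passing the adjusted threshold. The 3 members with the smallest p in this test were Efna1 (adjusted p = 0.266), Epha8 (0.301) and Plxna1 (0.301). Expressed as intervals, the 95% confidence interval of the fold change stayed within 1.3-fold in both directions in 63 of 68 members for EE against SH mice and in 63 for defeated against unstressed mice. In the comparisons between single groups this number lay between 51 and 59, and it was 47 for the interaction of defeat and housing. The share within 1.3-fold was 92.6% of members and 89.0% of all genes for EE against SH mice.

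**Figure D2:**
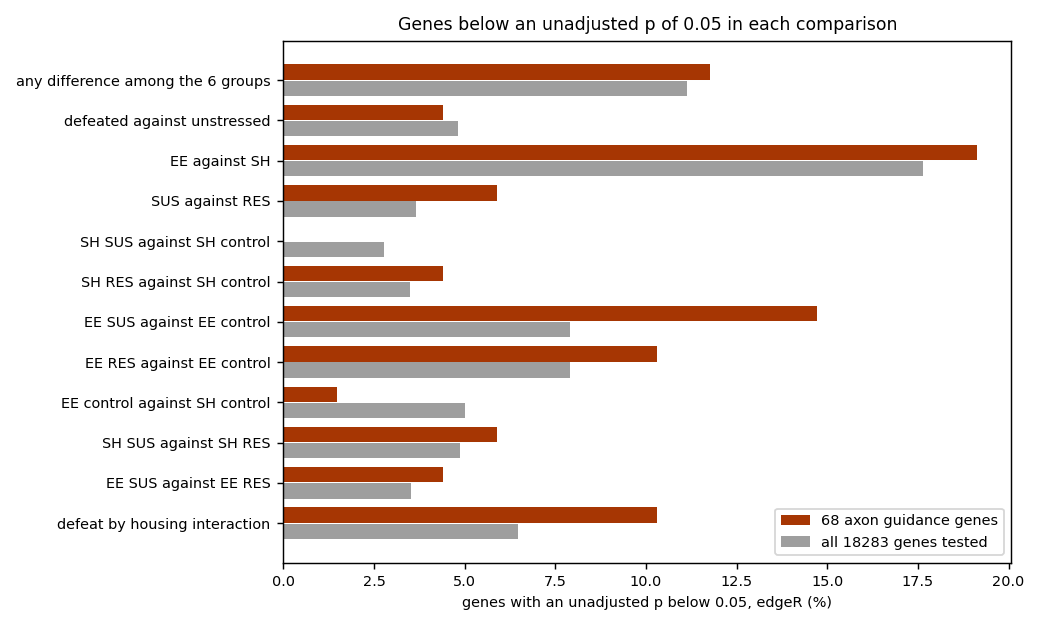
Percentage of the 68 guidance genes (dark bars) and of all 18283 genes tested (gray bars) with an unadjusted p below 0.05 by edgeR, for 12 comparisons. The paired bars are of similar length in most comparisons, at 19.1% and 17.6% for EE against SH, and lie farthest apart for EE SUS against EE control mice, at 14.7% and 7.9%.

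Between the housings, the smallest p belonged to Robo2, Plxnb3 and Epha7, whose levels in EE mice were 0.941, 1.14 and 0.911 times those in SH mice, and no member passed the adjusted threshold by edgeR. At that threshold 2.42% of all genes differed between EE and SH mice. At an unadjusted p below 0.05 there were 13 members by edgeR, 13 by limma and 14 by DESeq2, which is 19.1% of members where 17.6% of all genes reached it. Of these 13 members, 7 were higher in EE mice, where the share of all genes was 8.93%, and 6 were lower, where it was 8.7%. A share this near to that of all genes is not a result about guidance genes. Over all 68 members the median log2 fold change was 0.02, against 0.00434 over all genes.

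Robo2 encodes a Slit receptor and lies on chromosome 16 from 73891839 to 74411825 (GRCm38), 845743 bp from Robo1 with no protein-coding gene between them. Its level was lowest, median and highest at 158.9, 182.7 and 195.8 CPM in SH control, 164.6, 185.4 and 207.3 CPM in SH RES, and 164.9, 182.4 and 192.9 CPM in SH SUS mice. In EE mice the same values were 152.9, 171.2 and 192.5 CPM in control, 149.8, 165.5 and 188.6 CPM in RES, and 151.3, 174.2 and 183.2 CPM in SUS mice. All 6 ranges overlapped, while each EE median lay below each SH median. The log2 fold change of EE against SH mice was -0.09 (standard error 0.03, 95% interval -0.14 to -0.04), with an adjusted p of 0.0504 from edgeR. This value lay at the threshold. Robo2 passed it with DESeq2 (adjusted p = 0.0273), with other size factors, with a stricter low-count filter and with the replicate block. It also passed in 22 of the 54 edgeR fits with 1 mouse left out, for example at 0.0228 without SH control 3. It did not pass with limma-voom. The highest adjusted p was 0.0748 among the alternatives and 0.0808 by edgeR among the fits with 1 mouse left out. With a fold of 0.941 the difference was smaller than the spread within groups, whose CV was 6.54%. Robo1, its paralog, had a fold of 1.05 (95% interval 0.998 to 1.11).

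Plxnb3 encodes a plexin that binds Sema5a and is known from oligodendrocytes. Its median level was 13.6 CPM in SH control (range 12.2 to 18.1), 11.8 CPM in SH RES (10.98 to 15.05) and 12.9 CPM in SH SUS mice (10.1 to 17.8). It was 14.1 CPM in EE control (11.8 to 17.7), 14.9 CPM in EE RES (9.75 to 20.4) and 14.7 CPM in EE SUS mice (12.2 to 19.0). The ranges overlapped, and the log2 fold change was 0.18 (standard error 0.06, adjusted p = 0.0793 by edgeR), which passed the threshold in 3 of the 54 fits with 1 mouse left out. The summed level of 8 oligodendrocyte markers had medians of 1449, 1249 and 1259 CPM in SH control, RES and SUS mice and of 1385, 1505 and 1802 CPM in the same EE groups, within ranges of 1005 to 2420 CPM in SH and 1030 to 2240 CPM in EE mice. The part of these cells in the Plxnb3 difference was not tested.

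Epha7, an Eph receptor with a role in cortical map formation and dendrites, had medians of 313.9, 332.1 and 320.4 CPM in SH control, RES and SUS mice, and of 287.7, 293.5 and 284.1 CPM in EE control, RES and SUS mice. The highest mouse, at 396.9 CPM, was an SH control and the lowest, at 210.1 CPM, an EE control, and the groups overlapped. The log2 fold change was -0.13 (standard error 0.05, adjusted p = 0.102 by edgeR).

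Other members with an unadjusted p below 0.05, named after their values were seen, did not pass the adjusted threshold. Plxna1, a plexin receptor of secreted semaphorins, had a log2 fold change of 0.23 (SE 0.08, adjusted p = 0.113). Unc5b and Robo4, both known from vascular endothelium, had log2 fold changes of 0.20 each (adjusted p = 0.121 and 0.137). The 6 endothelial markers had summed medians of 159.2, 151.2 and 159.8 CPM in SH control, RES and SUS mice and of 168.4, 171.9 and 180.5 CPM in EE mice, and the part of vessels in the difference was not tested. The log2 fold changes were 0.15 for Sema3e, 0.12 for Sema3d, 0.23 for Epha2, -0.12 for Epha10 and Sema5a, -0.09 for Sema4f and -0.08 for Dcc, each with an adjusted p between 0.142 and 0.259. Efnb3, the highest ephrin, had an interval of -0.16 to 0.00, and Epha4, the highest member, a log2 fold change near 0.

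**Figure D3:**
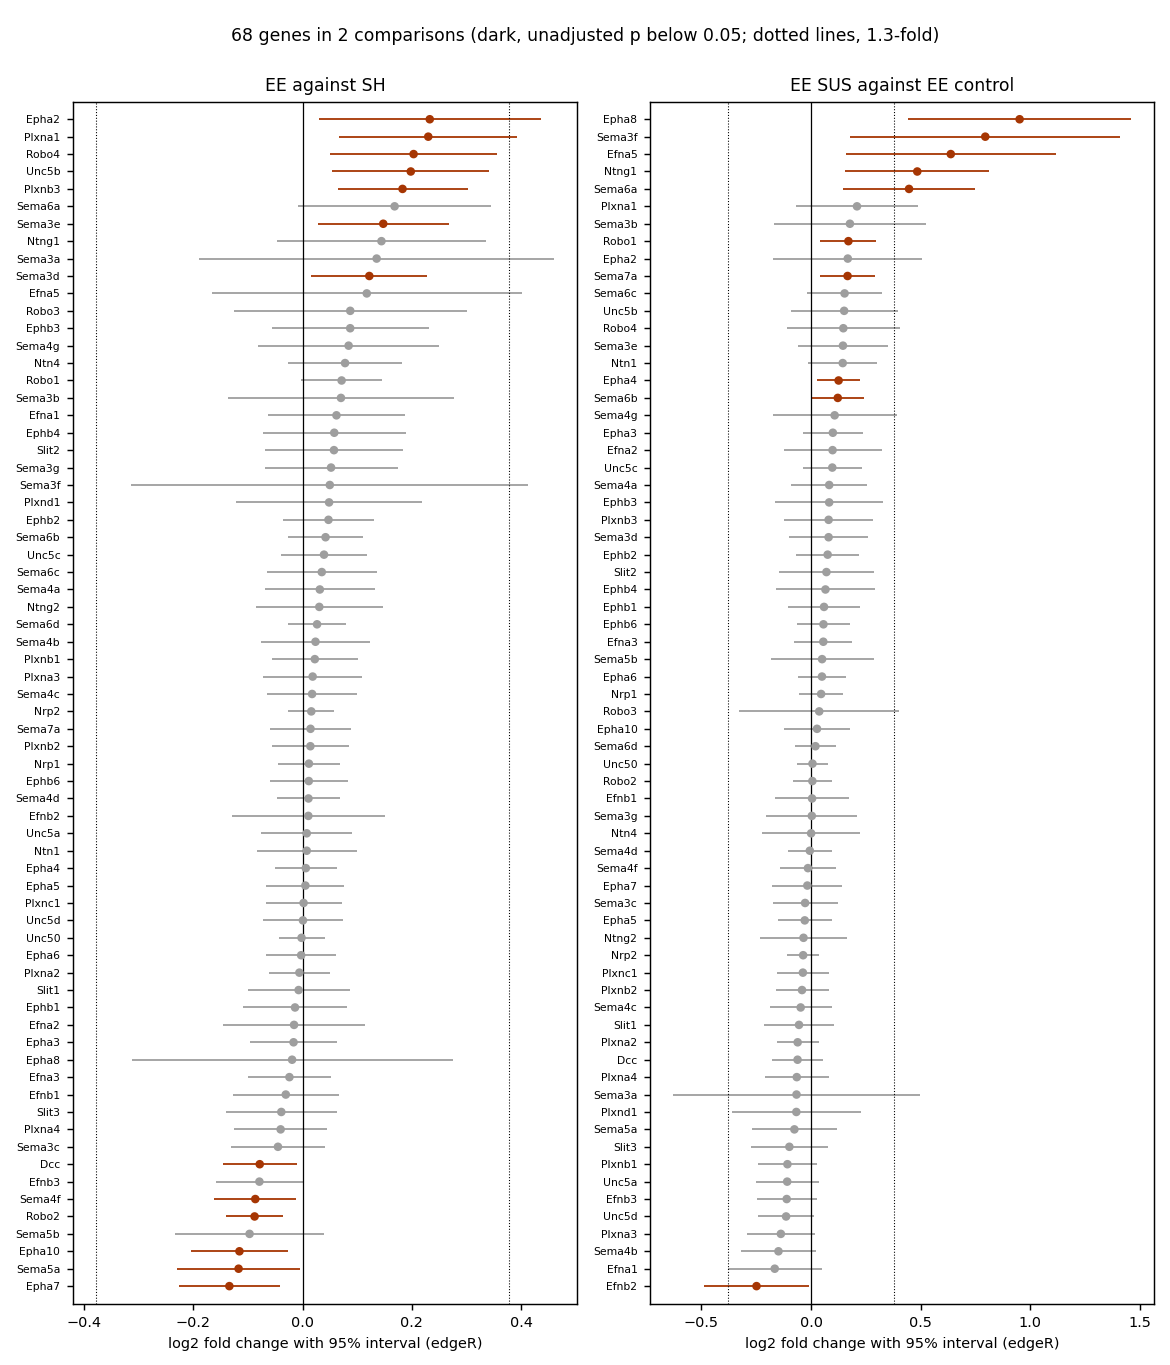
Log2 fold change with its 95% interval for the 68 genes, for EE against SH mice (left) and EE SUS against EE control mice (right), with an unadjusted p below 0.05 from edgeR in dark color and dotted lines at 1.3-fold. In the left panel the estimates lie between -0.13 and 0.23, and in the right panel Epha8, Sema3f, Efna5, Ntng1 and Sema6a lie farthest to the right, at 0.95 to 0.45.

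**Figure D4:**
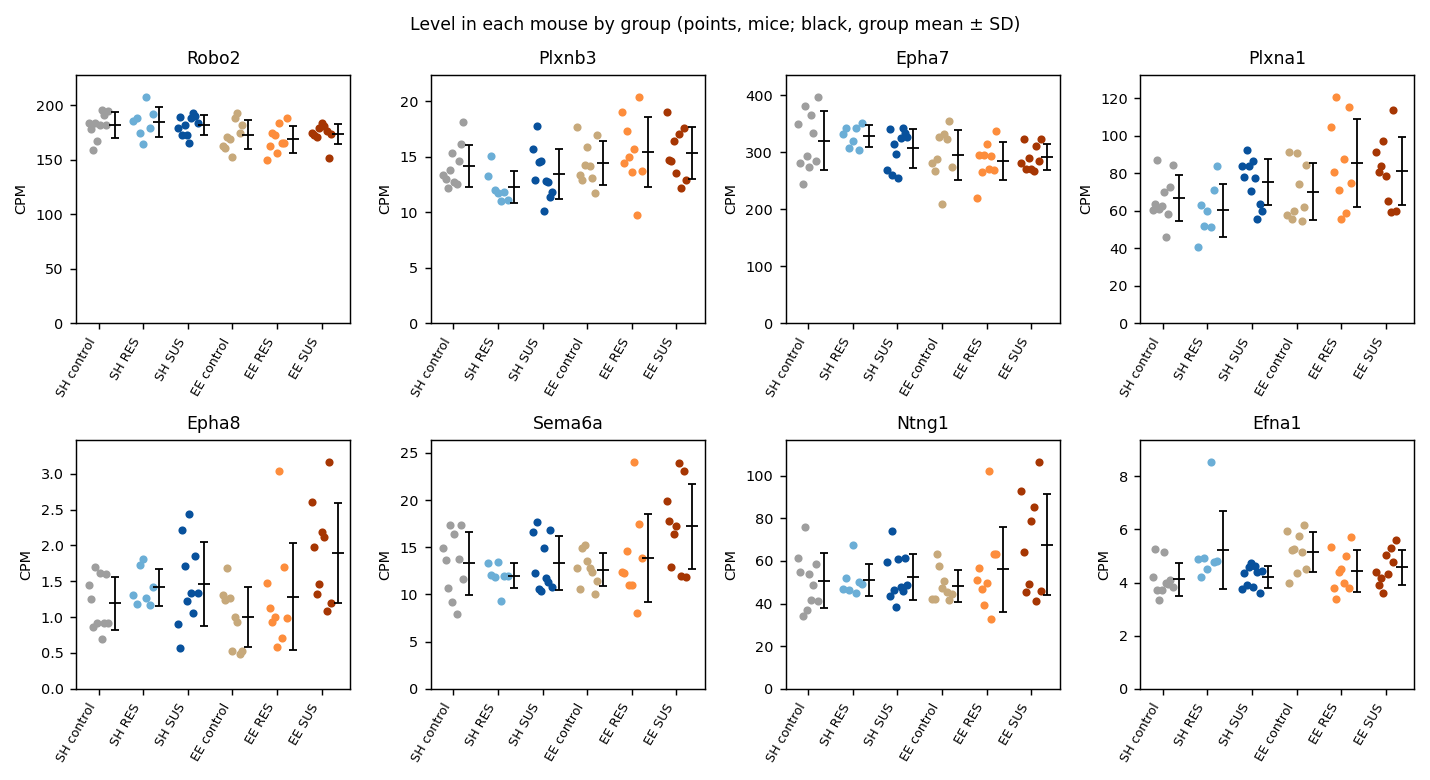
Level in CPM of 8 guidance genes in each mouse (points) by group, with the group mean and SD in black on axes that start at 0. The groups overlap in every panel, Ntng1 spreads widely in EE RES (32.8 to 102.1 CPM) and EE SUS mice (41.2 to 106.3 CPM), and 1 SH RES mouse lies apart in Efna1 (8.53 CPM).

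Defeated mice as a whole showed no called member, while 0.0438% of all genes passed the adjusted threshold. By edgeR 3 members had an unadjusted p below 0.05, 2 by limma and 3 by DESeq2, or 4.41% of members against 4.81% of all genes. The 3 were Epha8 (log2 fold change 0.48, standard error 0.16, adjusted p = 0.806), Plxnb1, a receptor of Sema4d, (-0.09, adjusted p = 0.987) and Robo1 (0.08, adjusted p = 0.987). With scores for thalamus and choroid plexus markers in the model, 1 member was left at this limit, and it was lower in defeated mice (4.77% of all genes reached the limit), and the log2 fold change of Epha8 was 0.18. Without the 5 mice of high thalamus sum, 2 members reached the limit (4.01% of all genes), 1 of them higher in defeated mice, and Epha8 had 0.31.

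SUS and RES mice of both housings together likewise had 0 called members and 0 called genes, with 4 members at an unadjusted p below 0.05 by edgeR and by both other tools, 5.88% against 3.67% of all genes. All 4 were semaphorins with a higher level in SUS mice. They were Sema6b (log2 fold change 0.10), Sema3b (0.30), Sema6c (0.14) and Sema6a (0.23), and edgeR gave all 4 an adjusted p of 0.999. Of all 20 semaphorins, 13 were higher and 7 lower in SUS mice, with log2 fold changes from -0.37 to 0.35. With the marker scores in the model, 0 members were left at this limit, where 2.61% of all genes reached it. Without the 5 mice of high thalamus sum 2 members reached it, where 3.29% of all genes did, and only 1 of the 2 was higher in SUS mice.

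The largest estimates within a housing were those of EE SUS against EE control mice. The folds of Epha8, Ntng1 and Sema6a, which had the smallest p, were 1.93, 1.40 and 1.36, and again 0 members passed the adjusted threshold (0 of all genes, 0%). At an unadjusted p below 0.05 there were 10 members by edgeR, 11 by limma and 10 by DESeq2, 14.7% of the list where 7.9% of all genes reached the limit, and 9 of the 10 were higher in EE SUS mice, where 4.53% of all genes were. The thalamus marker level also differed between these groups, and its part in the differences of EE SUS mice was not tested. It was higher in the EE SUS group, so the fits with marker scores cannot fully tell group and tissue content apart. The thalamus marker sum was 37.2 to 100.7 CPM in EE control mice with a median of 44.2, and 56.2 to 281.6 CPM in EE SUS mice with a median of 143.9, and all 7 markers were above 1 CPM in the median mouse.

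Epha8, an Eph receptor of low level on chromosome 4 (136929419 to 136956816, GRCm38), had 0.483, 0.998 and 1.69 CPM as its lowest, median and highest values in EE control mice, 0.584, 1.004 and 3.04 CPM in EE RES mice and 1.078, 1.98 and 3.16 CPM in EE SUS mice. In SH mice it had medians of 1.09, 1.31 and 1.33 CPM in control, RES and SUS mice, with an overall range of 0.565 to 2.44 CPM. EE SUS mice reached above the EE control range in 5 of 9 mice and overlapped with it in the other 4. The log2 fold change of EE SUS against EE control mice was 0.95 (standard error 0.25, 95% interval 0.44 to 1.46, adjusted p = 0.197 by edgeR). It was 0.22 (standard error 0.19, adjusted p = 0.976) with the marker scores in the model and 0.64 (standard error 0.25, adjusted p = 0.767) without the 5 mice of high thalamus sum.

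Ntng1, which encodes netrin-G1, a membrane-bound relative of netrins known from thalamic axons, was measured at 41.9, 45.4 and 63.1 CPM (lowest, median and highest) in EE control, 32.8, 51.0 and 102.1 CPM in EE RES and 41.2, 64.4 and 106.3 CPM in EE SUS mice. Its SH medians were 51.4 CPM in control, 49.2 CPM in RES and 48.3 CPM in SUS mice. The 4 highest mice of all 54 were EE SUS 8 (106.3 CPM), EE RES 6 (102.1 CPM), EE SUS 1 (92.8 CPM) and EE SUS 6 (85.5 CPM), and their thalamus sums were 272.7, 324.0, 281.6 and 235.6 CPM, the 4 highest of the series. The 3 EE SUS mice with the lowest thalamus sums, EE SUS 7, EE SUS 3 and EE SUS 9 (56.2, 64.3 and 69.6 CPM), had 41.2, 45.5 and 46.0 CPM of Ntng1, the first just below the EE control range and the other two within it. The log2 fold change of EE SUS against EE control mice was 0.48 (standard error 0.16, adjusted p = 0.400 by edgeR), 0.16 (standard error 0.14, adjusted p = 0.868) without the 5 mice, and -0.15 (standard error 0.05, adjusted p = 0.976) with the marker scores in the model.

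Sema6a, a transmembrane semaphorin that binds Plxna2 and Plxna4, was at 10.04, 12.8 and 15.2 CPM in EE control, 8.04, 12.4 and 24.0 CPM in EE RES and 11.8, 17.2 and 23.9 CPM in EE SUS mice, in the same order of lowest, median and highest. EE RES 6, EE SUS 6, EE SUS 8 and EE SUS 1 were again the 4 highest mice, between 19.9 and 24.0 CPM. Its log2 fold change was 0.45 (standard error 0.15, adjusted p = 0.393 by edgeR), 0.22 (standard error 0.14) without the 5 mice and -0.07 (standard error 0.08) with the marker scores. Other genes of low level, Efna5 and Sema3f, went from 0.64 and 0.79 to 0.16 and 0.49 without the 5 mice and to 0.01 and 0.14 with the scores.

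Epha4 and Sema7a changed less in these fits. Epha4 had medians of 793.0 CPM in EE control and 851.6 CPM in EE SUS mice, with overlapping ranges of 708.5 to 876.3 and 791.0 to 918.9 CPM, and a log2 fold change of 0.13 (SE 0.05, adjusted p = 0.506 by edgeR), 0.13 without the 5 mice and 0.11 with the scores. Sema7a had 0.17, 0.16 and 0.13 (adjusted p = 0.498, 0.785 and 0.976). For the list, the number of members at an unadjusted p below 0.05 fell from 10 to 3 without the 5 mice, where 6.201% of all genes reached it, and it was 4 with the scores, where 4.56% did. Of these 4, Epha4 alone was higher in EE SUS mice (0.11), and Ntng1 (-0.15), Dcc (-0.13) and Sema4g (-0.26) were lower, the last pair not being among the 10.

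**Figure D5:**
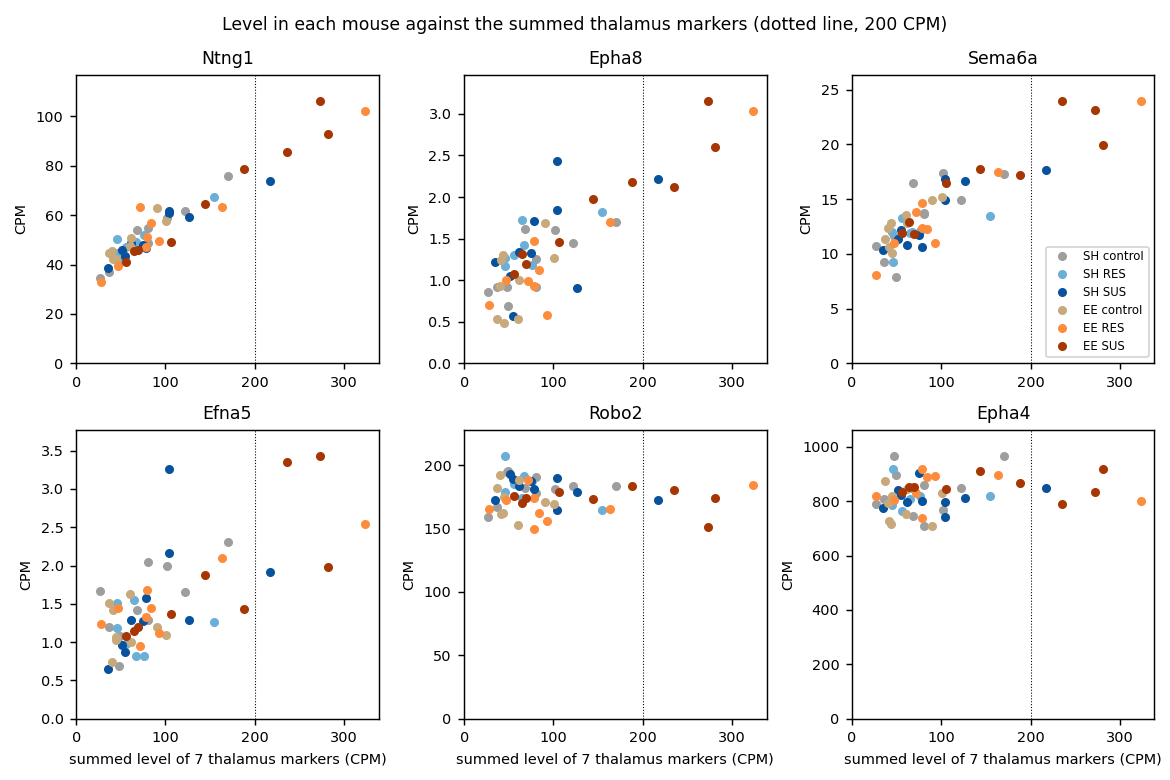
Level in CPM of 6 guidance genes in each of the 54 mice (points, colored by group) against the summed level of 7 thalamus markers in CPM, with a dotted line at 200 CPM. In Ntng1, Epha8 and Sema6a the mice to the right of the line are among the highest, and in Robo2 and Epha4 they lie within the range of the other mice.

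EE RES against EE control mice had 0 called members (0% of all genes) and 7 at an unadjusted p below 0.05 by edgeR, 7 by limma and 6 by DESeq2, 10.3% where 7.91% of all genes reached it. Of the 7, 5 were higher in EE RES mice, where 3.91% of all genes were, and 2 were lower, where 4% were. Efnb3 had medians of 86.7 CPM in EE control and 81.3 CPM in EE RES mice (log2 fold change -0.17, standard error 0.07, adjusted p = 0.580). Plxnb1 had medians of 73.4 and 64.3 CPM (log2 fold change -0.16, adjusted p = 0.599), and Sema4a, a semaphorin of the transmembrane class, 11.1 and 12.9 CPM (0.20, adjusted p = 0.607). The groups overlapped in all 3 genes. Robo1, Sema7a, Epha4 and Plxna1 made up the rest of the 7. The comparison shares its control mice with the one above, and 3 of these genes, Robo1, Sema7a and Epha4, had an unadjusted p below 0.05 in both, with log2 fold changes of 0.17, 0.17 and 0.13 in SUS and 0.15, 0.13 and 0.10 in RES mice. The SUS value of Robo1 was 0.05 with the marker scores and 0.12 without the 5 mice of high thalamus sum.

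Among SH mice no member was called either. SH SUS against SH control mice had 0 members at an unadjusted p below 0.05 by each of the 3 tools, where 2.78% of all genes reached this limit and 0.0328% passed the adjusted threshold. The smallest p belonged to Efna2 (log2 fold change -0.19, 95% interval -0.41 to 0.02), Nrp1 (0.07, -0.02 to 0.17) and Sema4a (0.12, -0.05 to 0.28), with adjusted p = 0.9997 from edgeR. SH RES against SH control mice had 0 called members (0% of all genes) and 3 members at an unadjusted p below 0.05 by each tool, 4.41% against 3.51% of all genes. SH SUS against SH RES mice had 0 called members (0% of all genes) and 4, 3 and 4 members by edgeR, limma and DESeq2, 5.88% by edgeR against 4.88% of all genes.

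Efna1, an ephrin ligand known from endothelium and from EphA signaling, led both comparisons that involve SH RES mice. It lies on chromosome 3 from 89271733 to 89281142 (GRCm38), 32756 bp from Efna3. Its lowest, median and highest values were 3.33, 3.97 and 5.25 CPM in SH control, 4.21, 4.83 and 8.53 CPM in SH RES and 3.60, 4.38 and 4.75 CPM in SH SUS mice, and 3.99, 5.22 and 6.17 CPM in EE control, 3.37, 4.41 and 5.72 CPM in EE RES and 3.62, 4.41 and 5.59 CPM in EE SUS mice. The groups overlapped, and SH RES 5, at 8.53 CPM, lay apart from the rest. The log2 fold change was 0.34 (standard error 0.11, adjusted p = 0.9999 by edgeR) for SH RES against SH control mice and -0.31 (standard error 0.11, adjusted p = 0.934) for SH SUS against SH RES mice, and without SH RES 5 these became 0.19 and -0.16. Sema6c and Efna2 (-0.21 and -0.25) were the other members below the limit in SH RES against SH control mice. Sema6b (0.15), Plxna1 (0.32) and Unc5b (0.26) were the others in SH SUS against SH RES mice. In that comparison 2 members reached the limit with the marker scores in the model (3.86% of all genes), 1 of them higher in SH SUS mice. Without the 5 mice of high thalamus sum 2 members reached it as well (3.98% of all genes), again with 1 higher.

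Housing without defeat gave 1 member at an unadjusted p below 0.05 by edgeR, 2 by limma and 1 by DESeq2, and 0 called members, where 5.02% of all genes reached the unadjusted limit and 0.00547% the adjusted threshold. This member was Efna1, higher in EE control than in SH control mice by 0.31 on the log2 scale (standard error 0.10, edgeR adjusted p = 0.808). Next by p were Epha4 (-0.09, 95% interval -0.19 to 0.01) and Efna2 (-0.19, -0.41 to 0.02).

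EE SUS against EE RES mice had 0 called members (0% of all genes) and 3 at an unadjusted p below 0.05 by each tool, 4.41% against 3.52% of all genes. Unc5d, a netrin receptor of cortical neurons, had medians of 34.5 CPM in EE RES and 30.7 CPM in EE SUS mice, and the EE SUS range (29.8 to 32.1 CPM) overlapped with the EE RES range (29.9 to 38.2 CPM). Its log2 fold change was -0.16 (standard error 0.06, adjusted p = 0.9997 by edgeR). Epha8 and Sema6a had 0.56 and 0.31, which became 0.22 and 0.05 with the marker scores in the model and 0.52 and 0.22 without the 5 mice. With the scores 1 member was left at this limit and 0 were higher in EE SUS mice, where 3.71% of all genes reached it. Without the 5 mice 4 members reached it, 1 of them higher in EE SUS mice, where 4.40% of all genes did. At the criterion of the study, a limma-voom p under 0.05 without adjustment together with more than a 1.3-fold difference, 0 members differed between SH SUS and SH RES mice, where 1.14% of all genes did, and 1 member, Epha8, between EE SUS and EE RES mice, where 1.1% did. Its fold change by limma-voom was 1.54 (adjusted p = 0.9998), and the edgeR value with the marker scores, a log2 of 0.22, was below 1.3-fold.

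The effect of defeat was also compared between housings. The interaction called 0 members (0% of all genes), and 7 members had an unadjusted p below 0.05 by each tool, 10.3% where 6.47% of all genes reached it. Efna1 had the smallest p, with a log2 difference of -0.38 (standard error 0.13, adjusted p = 0.756 by edgeR), followed by Epha4 (0.14, standard error 0.06) and Efna5 (0.69, standard error 0.30) at the same adjusted p. Of the 7, 6 had a difference above 0. Without the 5 mice of high thalamus sum 3 members reached this limit (7.32% of all genes), 2 of them with a difference above 0. With the marker scores 6 members reached it (5.23% of all genes), 3 of them with a difference above 0. The value of Efna5 was 0.41 and 0.24 in these fits.

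Of 68 partners and effectors of guidance signaling that are no members (among them adaptors, collapsin response mediators, adhesion molecules and scaffold proteins), all were tested, and 2 passed the adjusted threshold, both higher in EE than in SH mice, or 2.94% where 2.42% of all genes did. They were Cntn2, an axonal adhesion molecule that is also known from myelinated axons (log2 fold change 0.27, standard error 0.07, adjusted p = 0.0224 by edgeR), and Chn2, a chimaerin that turns off Rac (0.15, standard error 0.04, adjusted p = 0.0400). In that comparison 15 of the 68 had an unadjusted p below 0.05, 22.1% where 17.6% of all genes did, with 10 higher and 5 lower. In the other 11 comparisons 0 of the list passed the adjusted threshold by edgeR, and between 0 and 9 had an unadjusted p below 0.05, the 9 (13.2%) being found for any difference (11.1% of all genes) and for EE SUS against EE control mice (7.9%).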

How the data were processed

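RNA-seq of the ventral dentate gyrus of 54 male mice in 6 groups was analyzed. As deposited, the tables hold unnormalized counts of read pairs by gene, which the authors made after aligning to GRCm38 (mm10) with STAR. The methods name featureCounts, whereas the column layout is that of STAR's own gene counting, and the reverse-strand column was used because the kit is stranded. Rows for unassigned pairs, which held 47.1% to 54.2% of the read pairs, were left out. Groups came from the labels of the samples. The methods state unpooled RNA, so replicates were taken as single mice, and EE control mouse 9, sequenced in 2 runs, entered as their sum. The methods give fewer replicates for most CSDS groups than the 7 to 10 mice of the tables, and which mice entered the authors' own analysis is not given in the sources used here. Its runs had a correlation of 0.999 on the log2 scale, and the first run reached at most 0.998 with another EE control mouse. Depth, with 32223034 to 49990637 read pairs per library, limits precision for members near 1 CPM. CORT-treated mice were not part of the analysis.

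Counts were normalized with TMM in edgeR 4.0.16 (R 4.3.3), filtered with filterByExpr to 18283 genes and fitted over all 6 groups with the quasi-likelihood test, with Benjamini-Hochberg adjustment over all genes and a threshold of 0.05. limma 3.58.1 and DESeq2 1.42.0 were alternatives. The other alternatives were size factors, no low-count filter, a filter of 1 CPM in 7 mice, unstranded counts, sample quality weights, the replicate block, marker scores as covariates, 1 run of the repeated mouse, and each mouse left out. The fit without the 5 mice of high thalamus sum was chosen after seeing the data. Levels are TMM-normalized CPM, and exon length is the union of exons in GENCODE M21, by which 44671 of the identifiers were matched. On simulated counts for EE against SH (18164 genes), edgeR recovered 100% of genes changed by a log2 of 1 and 86% of those changed 1.3-fold. For SH SUS against SH control mice (18172 genes) it recovered 95% and 67.7%. This second simulation held 199 changed genes, whereas 6 genes were called in the data. The adjusted threshold is harder to pass where fewer genes change, so these shares do not give the recovery in the real comparison. Tables were handled with pandas 2.3.3 and NumPy 2.4.6, and matplotlib 3.10.9 drew the plots.

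The members, the pathway list and the marker lists were chosen with earlier results of these data known. Named genes are, in each comparison, the members past the adjusted threshold or else the 3 with the smallest p, the 3 members of the highest level per kilobase in each family, those near the detection limit, and pathway genes past the threshold. Other members named were chosen after their values were seen.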

Additional observations from a re-analysis of the deposited data

Results flagged for a closer look

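Single mice stood apart from their group in 7 of 120 tests by Dixon's criterion, which were made for 20 named members in 6 groups and by chance give about 1 in 20. Efna1 was at 8.53 CPM in SH RES 5, above the other SH RES mice, and Sema6a was at 9.28 CPM in the same mouse, below them. Ntng1 was at 67.5 CPM in SH RES 4, the SH RES mouse with the highest thalamus sum (154.8 CPM), and at 102.1 CPM in EE RES 6, the mouse with the highest thalamus sum of all (324.0 CPM). Epha8 was at 3.04 CPM in EE RES 6 as well. Plxnb1 was at 96.2 CPM in EE control 2, the highest of its group. Robo2 was at 151.3 CPM in EE SUS 8, the lowest of its group. The part of tissue content in these values was not tested.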

How the results depend on the processing

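The number of members called was 0 under every alternative that was run in 11 of the 12 comparisons. For EE against SH mice it was 1 (Robo2) with size factors (RLE), with the filter of 1 CPM in 7 mice, with DESeq2, with the replicate block and with the first run of EE control mouse 9 alone, and it ranged from 0 to 2 when 1 mouse was left out, with 0 in 31, 1 in 20 and 2 in 3 of the 54 fits. The additional members were Plxnb3 and Epha7, the latter only without SH control 3. The cause was not tested. Over all genes, the number called for EE against SH mice was 442, and it was 242 without the low-count filter, 680 with DESeq2 and 741 with quality weights, and the number with any difference among groups went from 64 to 183 with DESeq2, 136 with quality weights and 41 without the 5 mice of high thalamus sum. For defeated mice 8 became 13 with DESeq2, for SH SUS against SH control mice 6 became 1 with limma-voom, and for the control groups 1 became 2 with DESeq2. The log2 fold change of Robo2 stayed between -0.10 and -0.08. With the marker scores as covariates, the EE SUS against EE control values of Sema6a (-0.071) and Ntng1 (-0.15) turned in direction, while Epha8 stayed above 0 at 0.22. Members at the criterion of the study numbered 0 in SH and 1 in EE with edgeR, with the 4 defeated groups alone, with unstranded counts, with the 1 CPM filter and with the block, while over all genes the limma-voom count in SH went from 209 to 89 with that filter and in EE from 201 to 84. Replicate numbers were not taken as pairs of mice in the main fit. Over 126 same-numbered pairs the deviations from group means had a median correlation of 0.03, and 32 pairs were over 0.1. Over 1086 pairs of other numbers the median was -0.00397, and 175 pairs were over 0.1. Whether same-numbered mice share a batch or another source of variation was not tested. Among members the block changed no adjusted call except that of Robo2 (adjusted p = 0.0495), and over all genes it moved the EE against SH count from 442 to 581. Depth limits what can be said of Sema3f, Epha8, Epha2 and Efna5, which lie near 1 CPM.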
